A study of Mus musculus with 2 samples.

Results

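Wide ELF3 regions without NFKB2 are stretches of 2000 to 3999 bp on chromosomes 1 to 19 that were called as bound in an ELF3 CUT&RUN library and that share no base with any region called in the NFKB2 library of the same cells. In all, 1102 such regions were found among the 68319 ELF3 regions. They were chosen by the ELF3 width and by the lack of NFKB2 overlap, so both properties are part of the choice and are given as a description. The rule leaves out 3 stretches, at 21850 to 22280 kb and 23560 to 24000 kb on chromosome 13 and at 96080 to 96520 kb on chromosome 3. Of 2875 ELF3 regions of these widths on all sequences, 1137 lacked NFKB2, and 13 of these lay in the left-out stretches, 17 on the X chromosome and 5 on Y, mitochondrial or unplaced sequence. The contrast consists of the 1723 ELF3 regions of the same widths, on the same chromosomes and outside the same stretches, that overlap an NFKB2 region.

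CUT&RUN releases the DNA around an antibody-bound protein with a tethered nuclease, and the released fragments are sequenced. Both libraries, 1 for ELF3 and 1 for NFKB2, were made from primary tubular epithelial cells of the kidney of wild-type mice after stimulation with TNFα and IFNγ, and both carry the label batch 1. No unstimulated cells and no other genotype belong to the groups compared, and how many animals gave the cells is not stated in the labels. The peak lists hold no readout of cell identity, so the labelled cell type was not checked.

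ELF3 is an epithelium-restricted member of the ETS family, whose DNA-binding domain recognises sites built around a GGAA core, and it is induced by inflammatory cytokines in many epithelia. NFKB2 is made as the precursor p100, which holds its partner RelB inactive. Signalling by a subset of TNF receptor family members has p100 processed to p52, and p52 with RelB then enters the nucleus and binds κB sites. Regulatory elements in cytokine-treated cells are often bound by factors of several families together, and a wide called region can be a long open element or several short elements that the caller joined.

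The height of a region is given as the number of ELF3 fragments over its summit, recovered from the deposited scores. Averaged over the genome length given to the caller, a base was covered by 1.22 fragments in the ELF3 library and by 1.36 in the NFKB2 library. The lowest summits listed where the local background was at its lowest level had 6 fragments for ELF3 and 8 for NFKB2. A region without NFKB2 is therefore a region without a listed NFKB2 region, and weaker NFKB2 signal there was not tested. With 1 library per antibody there is no replicate error and no test. The 95% intervals are exact binomial (Clopper-Pearson) for shares and exact Poisson for fragments, and they cover counting error only. Coordinates are 1-based and as deposited, in the build of the files, which is GRCm39 by its sequence names, while mm10 is named in the submitters' processing notes.

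The share without NFKB2 was lower among wide ELF3 regions than among ELF3 regions in general. Overlap was counted from 1 bp, so a wider region has more bases in which to meet an NFKB2 region, and this was not adjusted for. The NFKB2 list was also much shorter, with 14217 regions over 7.31 Mb, against 68319 over 47.1 Mb for ELF3. A shorter NFKB2 list leaves more ELF3 regions without overlap. Among all 66600 ELF3 regions of any width on the same chromosomes, 80.1% had no NFKB2 region. Among the 2825 of 2000 to 3999 bp the share was 39.0% (37.2 to 40.8). With −log10 q of 10 or more in both lists, which shortens the NFKB2 list, it was 70.7%. As deposited, the share was 91.9% below 500 bp, 72.1% at 500 to under 1000 bp, 62.9% at 1000 to under 2000 bp and 15.6% (12.2 to 19.6) at 4000 bp or more. Within the limits of the rule the share went on falling, from 45.4% (42.8 to 47.9) below 2500 bp to 36.1% (32.7 to 39.7) below 3000 bp, 30.03% (25.5 to 34.9) below 3500 bp and 22.5% (17.2 to 28.5) in the widest band.

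Wider regions are also higher, so the share was set out by both properties. At a given summit height, up to 99 fragments, the share without NFKB2 was lower among the wide regions than among narrower ones. With 15 to 19 fragments at the summit, NFKB2 was missing at 95.8% of regions below 500 bp, at 84.1% (81.9 to 86.1) of those of 1000 to under 2000 bp and at 66.7% (60.3 to 72.6) of the wide ones. With 30 to 34 fragments the shares were 87.6%, 64.9% (61.7 to 68.0) and 41.0% (34.8 to 47.4). With 60 to 79 fragments they were 63.5%, 32.7% (29.8 to 35.6) and 20% (16.2 to 24.2). The intervals of the wide class and of the next narrower class lay apart in every height class below 80 fragments. From 80 fragments upwards they overlapped, with 16.2% (11.1 to 22.4) and 21.35% (17.57 to 25.52) at 80 to 99 fragments. The share at 100 or more fragments was 14.4% (8.62 to 22.1) for wide regions and 13.3% (9.67 to 17.7) for those of 1000 to under 2000 bp. At 80 to 99 fragments the wide regions still lay apart from those of 500 to under 1000 bp, with 16.2% (11.1 to 22.4) against 30.1% (26.1 to 34.3). At 100 or more fragments their interval lay apart only from that of the narrowest class, where 35.9% (26.8 to 45.7) lacked NFKB2.

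**Figure D1:**
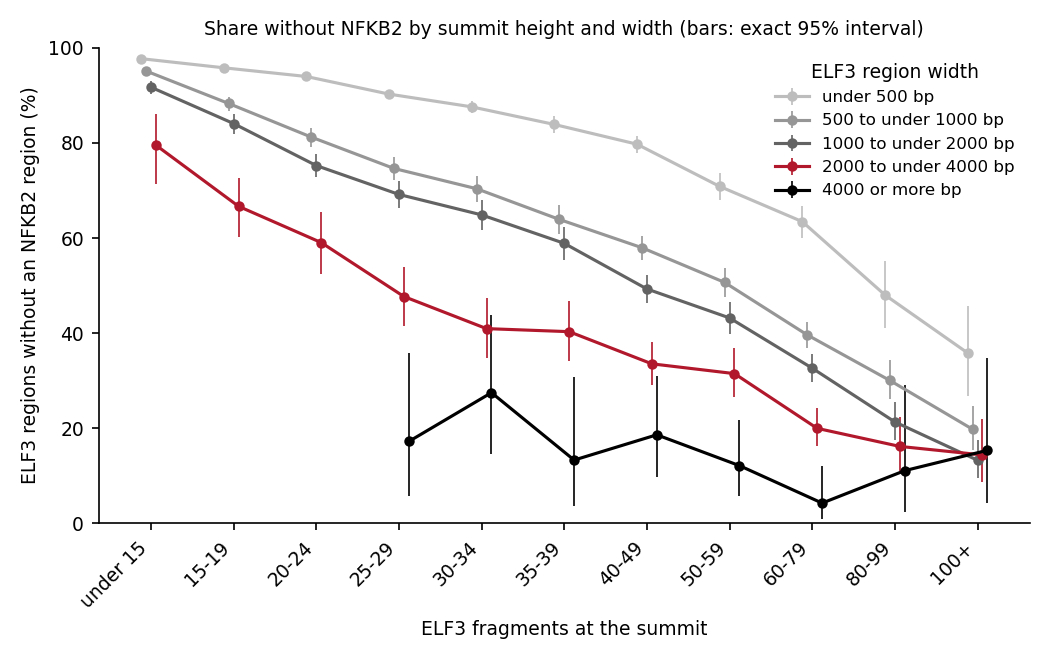
Share of ELF3 regions without NFKB2 (vertical axis, percent) by ELF3 fragments at the summit (horizontal axis, classes) for 5 classes of width, as points with exact 95% intervals; classes with under 20 regions are not drawn. The red line of the 2000 to under 4000 bp class lies below the 3 narrower classes up to 79 fragments, falling from 79.5% below 15 fragments to 14.4% at 100 or more.

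The regions without NFKB2 were the lower part of the wide ELF3 regions, with a broad overlap with the contrast. Their summits held a median of 31 ELF3 fragments, with quartiles of 20 and 46 and a range of 6 to 128. The contrast had a median of 47 fragments, with quartiles of 33 and 67. The median ELF3 region of the whole list had 22. The deposited fold of summit signal over local background had a median of 12.7 without NFKB2 and 18.9 with it, and the deposited −log10 q had medians of 27.5 and 49.4. Fewer than 15 fragments were found at 9.17% of the regions without NFKB2 and at 1.51% of the contrast. Heights of 100 or more were reached by 17 regions without NFKB2, 1.54% of them, and by 101 of the contrast, 5.86%. Widths differed less, with medians of 2386 and 2539 bp. Among the regions without NFKB2 the height was nearly unrelated to the width (Spearman's rho 0.11 over 1102 regions of 1 library).

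**Figure D2:**
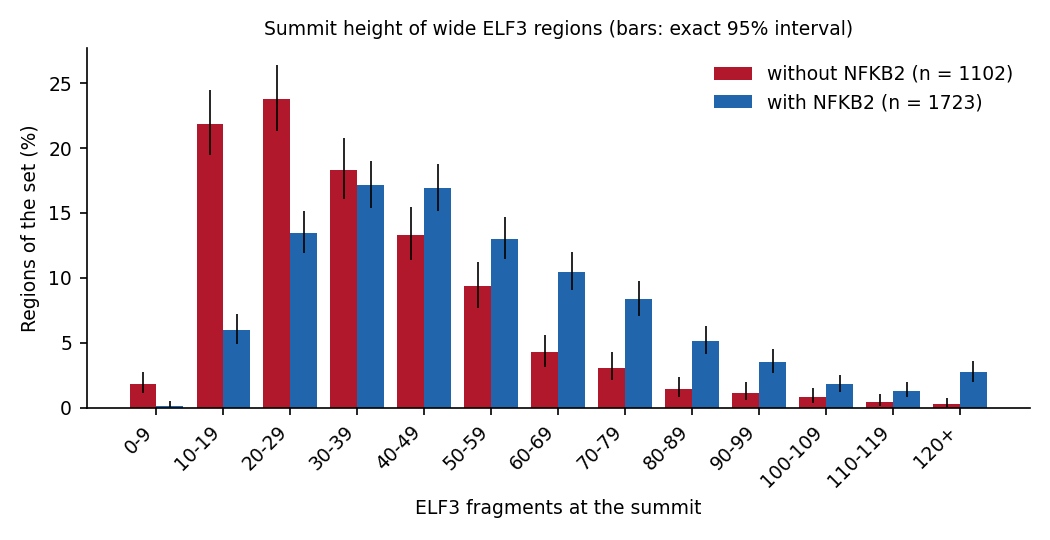
ELF3 fragments at the summit (horizontal axis, classes of 10) for wide ELF3 regions without NFKB2 (red) and with it (blue), as the percent of each set in each class with exact 95% intervals. The red bars are tallest at 20 to 29 fragments and the blue ones at 30 to 39 and 40 to 49, and both sets share the whole range up to 120 or more.

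A raised local background did not set the regions apart. The background was at its lowest level at 66.8% (63.9 to 69.6) of the regions without NFKB2 and at 64.2% (61.9 to 66.5) of the contrast. It exceeded 2 times that level at 88 regions without NFKB2 and at 162 of the contrast. The highest value was 5.68 times the lowest level without NFKB2 and 1790 times in the contrast.

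The 10 regions of highest −log10 q without NFKB2 were all strong ELF3 regions, and 5 of them lay on chromosome 13. The first, on chromosome 13 at 16912420 to 16914786, had 128 fragments at its summit (106.8 to 152) and a fold of 58.0, and the nearest NFKB2 region was 65.5 kb away. On chromosome 2 at 13730213 to 13732983 there were 117 fragments (96.8 to 140), with NFKB2 151 kb away. A region of 2063 bp on chromosome 13 at 12271228 to 12273290 had 120 fragments over a background 1.28 times the lowest level. Chromosome 13 at 5598883 to 5601123 had 113 fragments. Chromosome 2 at 48301473 to 48304979 had the same number, with its summit 1752 bp from the left and 1756 bp from the right end of a 3507 bp region. There were 111 fragments at chromosome 15, 35020093 to 35022729, and as many at chromosome 5, 70546513 to 70549315. Chromosome 13 held a further pair, with 109 fragments at 21546519 to 21549126 and 103 at 21416635 to 21418967. The last of the 10, at chromosome 14, 89847007 to 89849683, had 102. These heights are over 3 times the median of 31, and 9 of the 10 stood on the lowest local background. The 5 regions with most fragments on the lowest background are among these 10.

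The widest regions were not the highest. Chromosome 13 held the first of them, of 3952 bp at 23491488 to 23495439 with 33 fragments, and the next, of 3942 bp at 101828710 to 101832651 with 26. The others had 36 fragments (chromosome 15, 74919672 to 74923588), 29 (chromosome 3, 89149996 to 89153903) and 42 (chromosome 1, 89046511 to 89050413). In 4 of these 5 the summit lay within 380 bp of an end: 380, 242, 282 and 217 bp. At the low end, 2 regions were listed with 6 fragments, 1 on chromosome 10 at 81123724 to 81125911 and the other on chromosome 2 at 173111698 to 173114089, and their −log10 q was 1.53. These were chosen after their values were seen.

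Regions at the limits of the rule had no common height. The narrowest regions inside the lower limit, at 2000 to 2002 bp, had 18, 8, 31, 37 and 26 fragments. Those just below it, at 1998 and 1999 bp, had 23, 36, 20, 7 and 28. No region without NFKB2 lay between 3952 bp and the upper limit, and the first ones beyond it, at 4013 to 4068 bp, had 108, 44, 33, 32 and 94 fragments. On the side of NFKB2, the region nearest to an NFKB2 region was 384 bp away, on chromosome 18 at 38342220 to 38344337, and the next was 423 bp away, on chromosome 4 at 47349801 to 47351809. A region on chromosome 6 at 52201622 to 52205034 was 1151 bp from NFKB2. Regions of chromosome 7 at 130177870 to 130179876 and at 16516430 to 16518933 were 1158 and 1169 bp away. In the contrast the smallest overlap was 130 bp, on chromosome 14 at 64901529 to 64904325.

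The summit was placed differently within the region in both sets. Without NFKB2, 37.8% (34.97 to 40.8) of the summits lay within 10% of the region's width from an end, where an even spread gives 20%. In the contrast this was 21.0% (19.1 to 23.0). The central 50% of the width held 39.0% (36.1 to 42.0) of the summits without NFKB2 and 48.1% (45.7 to 50.5) of those with it. The distance from the summit to the nearer end had a median of 392 bp without NFKB2 and 607 bp with it.

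At matched heights the intervals of the shares near an end lay apart only below 40 fragments. The order was the same in every height class, and overlapping intervals alone do not show equal shares. Below 20 fragments, 45.2% (39.1 to 51.5) of summits without NFKB2 and 28.3% (19.98 to 37.9) of those with it lay within 10% of an end. With 20 to 39 fragments, 41.6% (37.1 to 46.2) and 26.0% (22.3 to 29.96) did so. With 40 to 59 fragments the values were 32.0% (26.3 to 38.2) and 24.1% (20.4 to 28.01), and with 60 or more 20.5% (13.8 to 28.5) and 12.2% (9.61 to 15.1), and in both classes the intervals overlap. For the central 50% of the width the intervals lay apart only at 20 to 39 fragments, with 38.4% (33.9 to 43.0) against 47.6% (43.3 to 52.0). When the contrast was weighted to the heights of the regions without NFKB2, 25.4% of its summits lay near an end. By width, the shares near an end were 39.7% (35.9 to 43.5) without NFKB2 and 19.1% (16.5 to 22.0) with it below 2500 bp, and 33.2% (27.6 to 39.2) and 18.4% (14.97 to 22.1) from there to 3000 bp. From 3000 bp upwards they were 37.95% (30.5 to 45.8) and 27.0% (22.9 to 31.4), which overlap. For the central 50% the intervals lay apart below 2500 bp, with 36.4% (32.7 to 40.1) and 47.8% (44.3 to 51.3), and overlapped at 2500 to under 3000 bp, with 45.9% (39.8 to 52.1) and 48.5% (43.9 to 53.1), and from 3000 bp, with 38.6% (31.1 to 46.4) and 47.97% (43.2 to 52.7). ELF3 regions of 1000 to under 2000 bp without NFKB2 had 39.3% (38.1 to 40.4) of summits near an end, close to the 37.8% of the wide ones. The central 50% of their width held fewer summits, 22.0% (21.0 to 23.0) against 39.0% in the wide ones. The ELF3 list holds 1 summit per region and no gap between regions shorter than 1001 bp, so shorter gaps had been joined by the caller. How many wide regions are several joined pieces was not tested.

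**Figure D3:**
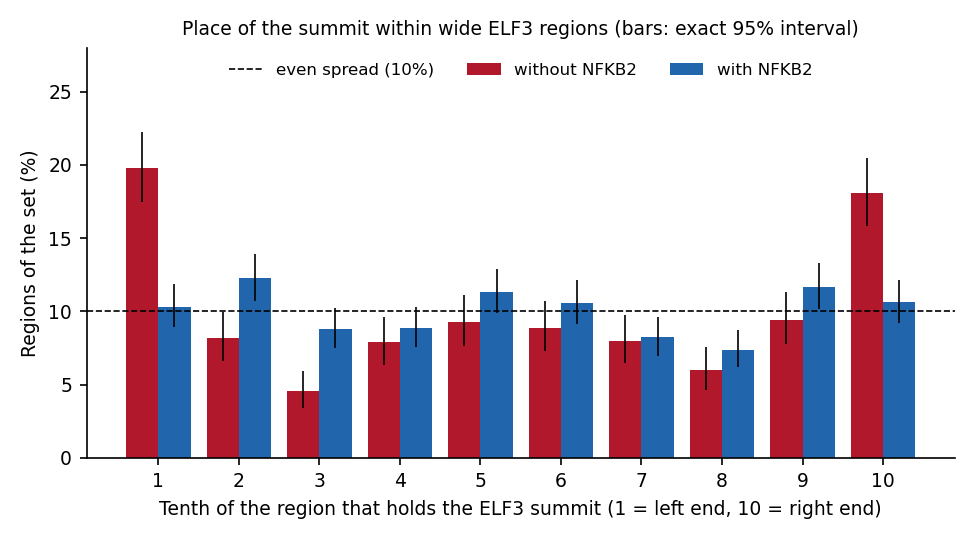
Share of regions (vertical axis, percent of the set) whose ELF3 summit falls in each slice of 10% of the region's length (horizontal axis, from 1 at the left to 10 at the right end), without NFKB2 (red) and with it (blue), with exact 95% intervals; the dashed line marks an even spread. The red bars at both ends reach 19.8% and 18.1%, against 10.3% and 10.6% for the blue ones.

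Where a wide ELF3 region did carry NFKB2, the NFKB2 region was usually single, covered the smaller part of the ELF3 region and held the ELF3 summit. Of the 1723 contrast regions, 1570 overlapped 1 NFKB2 region and 153 more than 1. NFKB2 covered a median of 25.8% of the ELF3 region, with quartiles of 12.9 and 45.2%. The ELF3 summit lay inside an NFKB2 region in 1500 of them, 87.1%. The strongest NFKB2 region in each had a median of 18 fragments, with quartiles of 14 and 24, and the NFKB2 over ELF3 ratio of summit fragments, adjusted for the 1.11-fold higher average cover of the NFKB2 library, had a median of 0.360. The whole NFKB2 list on these chromosomes had a median of 16 fragments.

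NFKB2 regions were sparser around the wide ELF3 regions without NFKB2 than around the contrast, beyond the region itself, which the rule fixes. They were still denser near the regions without NFKB2 than far from them, with 15.8 per Mb at 5 to 10 kb and 7.53 at 400 to 500 kb. ELF3 regions fell in the same way, from 70.2 to 33.7 per Mb. Within 50 kb of the summit there were 1.31 NFKB2 regions on average, against 2.19 around the contrast when NFKB2 regions overlapping the ELF3 region were not counted. None was found within 50 kb for 43.2% of the regions without NFKB2 and for 26.2% of the contrast. ELF3 regions were only slightly sparser, 5.81 against 6.73 on average within 50 kb. At 500 kb the averages were 8.89 and 12.8 for NFKB2 and 40.7 and 45.1 for ELF3. Weighting the contrast to the heights of the regions without NFKB2 gave 2.41 NFKB2 and 6.86 ELF3 regions within 50 kb, so the gap did not shrink. With −log10 q of 10 or more in both lists, which leaves fewer NFKB2 regions, the averages within 50 kb were 0.550 and 1.15.

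The neighbouring ELF3 regions showed the same order. The nearest other ELF3 region carried NFKB2 for 20.8% (18.4 to 23.3) of the regions without NFKB2 and for 27.2% (25.1 to 29.3) of the contrast. Over all other ELF3 regions within 50 kb, wide ones of either set left out, 18.6% (17.6 to 19.7) and 26.1% (25.2 to 27.0) carried NFKB2. For neighbours of 20 to 39 fragments and under 1000 bp the shares were 14.4% (12.6 to 16.3) of 1465 and 21.4% (19.7 to 23.1) of 2383. By comparison, 80.1% of all 66600 ELF3 regions had no NFKB2 region. That share counts the wide regions, which the neighbours within 50 kb leave out, and is not matched for height or width. Before the choice by height and width, neighbours of the regions without NFKB2 thus carried it about as often as ELF3 regions in general. Neighbours of the contrast carried it more often. A neighbour was counted once per set, and some neighbours belong to both sets.

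**Figure D4:**
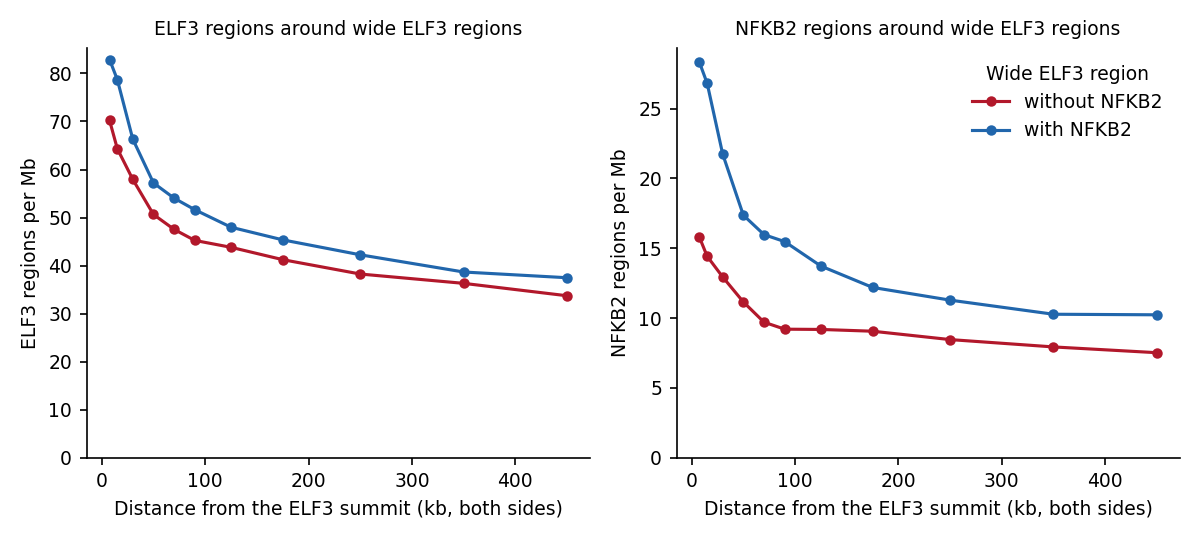
Number of ELF3 regions (left) and NFKB2 regions (right) per Mb by distance from the summit of wide ELF3 regions without NFKB2 (red) and with it (blue); the horizontal axes give the distance in kb on both sides, from 5 kb outwards, and the vertical axes start at 0. Between 10 and 20 kb there were 14.4 NFKB2 regions per Mb around the red set and 26.8 around the blue set, and between 400 and 500 kb 7.53 and 10.2, while the ELF3 densities were 64.3 and 78.7 and then 33.7 and 37.5.

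The distance to the nearest NFKB2 region ranged from 384 bp to 2944 kb. Its median was 36.1 kb, with quartiles of 10.2 and 111 kb, and it was 101.8 kb with −log10 q of 10 or more in both lists. ELF3 regions of other widths without NFKB2 had similar medians. These were 38412 bp (quartiles 12222 and 125608) at 1000 to under 2000 bp and 37535 bp (5634 and 101094) at 4000 bp or more. Among the wide regions the distance was under 1 kb for 2, under 2 kb for 54 (4.90%) and under 10 kb for 268 (24.3%, 21.8 to 27.0). ELF3 gaps shorter than 1001 bp had been joined by the caller, and how far this shaped the shortest distances was not tested. The distance was over 100 kb for 305 (27.7%, 25.1 to 30.4), over 500 kb for 71 (6.44%) and over 1000 kb for 25 (2.27%). The 71 most distant regions were higher than the rest, their median summit holding 46 fragments (27.5 and 70 as quartiles) where that of the others held 30 (20 and 44), and they lay where ELF3 regions were few, with a median of 16 other ELF3 regions within 500 kb against 41. The NFKB2 region nearest to a region without NFKB2 had a median of 15 fragments.

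The regions farthest from NFKB2 included some of the strongest. On chromosome 18 at 28796515 to 28798548 the nearest NFKB2 region was 2944 kb away, and the summit had 38 fragments over a background 2.43 times the lowest level. On chromosome 14 at 89847007 to 89849683 and at 96919353 to 96922171, NFKB2 was 2193 and 2179 kb away, and the summits had 102 and 109 fragments. Chromosome 16 at 40685247 to 40687427 had 58 fragments, with NFKB2 at 1919 kb and the next ELF3 region at 99991 bp. Chromosome 5 at 70546513 to 70549315 had 111 fragments, with NFKB2 at 1858 kb. Across the 1102 regions the distance to NFKB2 and the height had a Spearman's rho of 0.18.

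Chromosomes differed in the share of wide ELF3 regions without NFKB2. It was highest on chromosome 13, at 52.9% (45.9 to 59.8; 110 of 208), followed by chromosome 14 at 48.6% (38.9 to 58.4) and chromosome 3 at 45.7% (38.8 to 52.7). It was lowest on chromosome 8, at 27.4% (19.8 to 36.1; 34 of 124), and on chromosome 11, at 30.5% (24.1 to 37.6; 58 of 190). The intervals of chromosomes 4, 5, 7, 8, 11, 12 and 19 lay apart from that of chromosome 13, while those of neighbours in this order overlapped. Among ELF3 regions of other widths, 87.0% lacked NFKB2 on chromosome 13, 84.6% on 14, 86.4% on 3, 79.4% on 8 and 74.2% on 11.

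The order of the chromosomes was not that of their summit heights. The wide regions of chromosome 13 were the highest of any chromosome, with medians of 40.5 fragments without NFKB2 and 64 with it. From the heights of its wide regions and the shares over all chromosomes, 33.8% without NFKB2 would be found on chromosome 13, and 52.9% was observed. On chromosome 11 the corresponding values were 43.0 and 30.5%, and the regions without NFKB2 had the lowest median there, 22.5 fragments. Of the 50 regions without NFKB2 of highest −log10 q, 19 lay on chromosome 13, which holds 110 of all 1102. ELF3 regions of other widths on chromosome 13 had a median of 22 fragments, which chromosomes 1, 3, 7 and 17 share, and 10.9% of them reached 60 fragments, against 5.88 to 8.91% on the other chromosomes. NFKB2 regions on chromosome 13 had a median of 16 fragments, as on most chromosomes. Their number differed more. There were 640 beside 3908 ELF3 regions outside the left-out stretches on chromosome 13, 508 beside 2905 on 14 and 690 beside 4096 on 3. Chromosomes 8 and 11 had 806 beside 3317 and 1207 beside 4068. Chromosome 18, with a share of 41.4%, had 388 beside 2437. How far these numbers account for the shares was not tested.

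**Figure D5:**
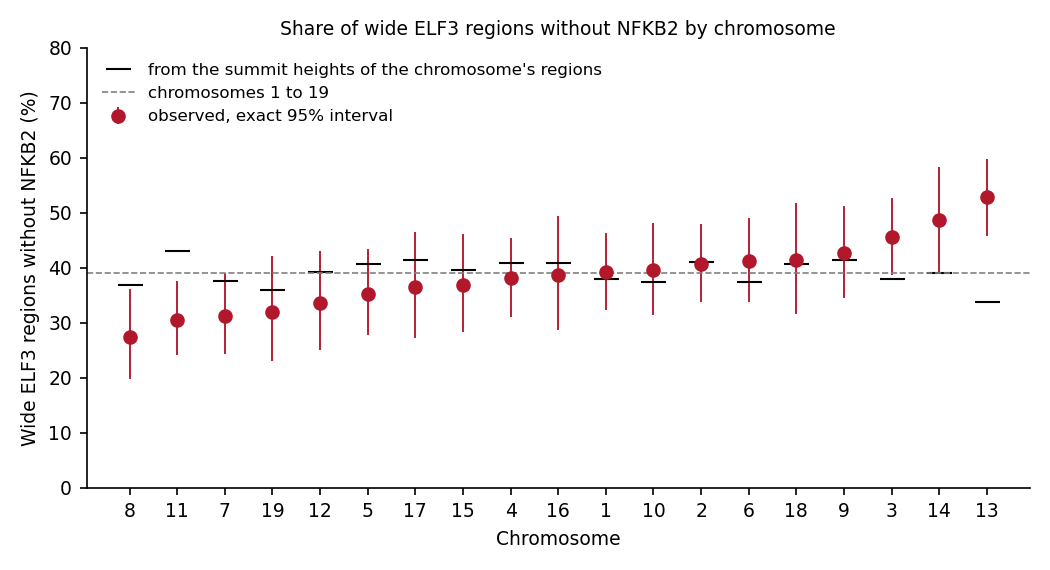
Share of wide ELF3 regions without NFKB2 (vertical axis, percent) on each chromosome (horizontal axis, ordered by the share), as points with exact 95% intervals; black dashes give the share computed from the summit heights on that chromosome and the dashed line the 39.0% over all 19. Chromosome 13, at 52.9%, lies above its dash of 33.8%, and chromosome 11, at 30.5%, below its dash of 43.0%.

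Part of the chromosome 13 excess lay beside the left-out stretches, whose chromosomes carry the replication-dependent histone gene clusters. Within 2 Mb of a left-out stretch on either chromosome, 34 of 48 wide regions lacked NFKB2 (70.8%, 55.9 to 83.0). Of these 34, 10 lay on chromosome 3. The summits of the 34 had a median of 51 fragments, against 30 for the other 1068 regions without NFKB2. The median was 41 in the chromosome 3 flanks. Around the stretches of chromosome 13, whose flanks overlap, it was 61.5 and 54. Without these flanks the share on chromosome 13 was 48.6% (41.0 to 56.2), and over all chromosomes without chromosome 13 it was 37.9% (36.0 to 39.8). The flanks were chosen after the values were seen.

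Most of the regions had no second wide region without NFKB2 within 50 kb, though only 3.63% had no other ELF3 region within 50 kb of the summit. When regions without NFKB2 within 50 kb of each other were joined into groups, 935 were single, 62 groups had 2 and 11 groups had 3 or more. Both largest groups lay on chromosome 13 near the left-out stretches. The group at 21416635 to 21654192, 196 kb from a left-out stretch, had 8 wide regions without NFKB2 among 30 ELF3 regions, and 1 NFKB2 region. Its 8 summits had 103, 94, 33, 109, 53, 81, 53 and 50 fragments in order along the chromosome. All 8 were above the median of 31 of the whole set. The group at 23080870 to 23148391 had 5 among 8 ELF3 regions and no NFKB2 region in 67.5 kb, and its summits had 107, 52, 94, 124 and 96 fragments. The nearest NFKB2 region lay 437555 to 502732 bp from each of them.

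The groups of 4 had lower summits. On chromosome 1 at 42722760 to 42759616 the summits had 13, 7, 23 and 12 fragments, with 1 NFKB2 region in the group. On chromosome 6 at 52152139 to 52205034 they had 29, 10, 30 and 22 fragments, with 2 NFKB2 regions in the group and the nearest at 1151 bp. On chromosome 15 at 37134268 to 37235067 they had 20, 24, 31 and 28 fragments, with none in the group and the nearest at 13272 bp. None of these 12 summits exceeded the median of 31, in contrast to the 8 and 5 on chromosome 13. Among the 6 groups of 3, the one on chromosome 13 at 23469475 to 23495439 lay 64.6 kb from a left-out stretch and had summits of 28 to 70 fragments. The one on chromosome 3 at 98262210 to 98291696 had 16 to 72 fragments and no NFKB2 region.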

How the data were processed

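Peak lists of 2 CUT&RUN libraries, ELF3 and NFKB2, were used, grouped by the labels. MACS2 called the regions, and mm10 is the build named, both per the submitters' processing notes, whereas the sequence names are those of GRCm39. For the version, settings and aligner, nothing is given in the sources used here. Each deposited score is −log10 q times 10 without its decimals. The fold, deposited for the summit, is a ratio to the local background, and the deposited −log10 values are a p and a q for that base.

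Fragments at a summit and the local background were recovered from fold and −log10 p under MACS2's Poisson score, within 0.01 of −log10 p (scaled up over 100). A fragment was worth 1.00 (ELF3) and 0.964 (NFKB2). A solution was found for all but 1 ELF3 and 11 NFKB2 regions. On lists simulated under the same score model, 100% of 5000 regions per library were recovered. This checks the code and not whether the deposited scores follow the model. Overlap means 1 bp or more. Python 3.11.15, numpy 2.4.6, pandas 2.3.3 and scipy 1.17.1 were used.

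The rule for named regions took the 10 of highest −log10 q, 5 each that were widest, farthest from and nearest to NFKB2 or highest on the lowest background, and those at the width limits. The members and lists were chosen with earlier results of these data known. Gene starts, GC content, motifs and gene lists were planned but not analysed here, since the RefSeq tables at hand are of GRCm38.p6 and were not joined to files of another build. Regions are not replicates, so there are no p-values.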

Additional observations from a re-analysis of the deposited data

How the results depend on the processing

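Lists of −log10 q of 10 or more gave 1856 regions without NFKB2 and a share of 70.7%, with median summits of 38 fragments without NFKB2 and 57.5 with it and 43.0% of summits without NFKB2 in the central 50% of the width. An NFKB2 list of −log10 q of 5 or more gave a share of 53.4% and 52 fragments in the contrast. Both shorten the NFKB2 list by construction. Widths from 1500 bp gave 2787 regions, a share of 46.8% and central summits of 34.4 and 44.96% without and with NFKB2. Widths from 3000 bp gave 166 regions, 27.2% and 35 fragments. Weighting the contrast to the members' heights gave it 31 fragments by construction, and summits of at least 15 fragments gave a share of 37.1%. In all 12 settings, 3 of them chosen after the data were seen, the regions without NFKB2 had fewer central summits and fewer NFKB2 regions within 50 kb than the contrast, and in the 11 without weighting fewer fragments. Of 68 values on fold, distance and surroundings, 18 moved. With −log10 q of 10 or more the median distance to NFKB2 was 101.8 kb and the mean NFKB2 regions within 50 kb were 0.550 for regions without NFKB2 and 1.15 for those with it, and with the NFKB2 list alone at 5 or more these were 49.3 kb, 1.025 and 1.65. The settings for gene starts and motifs were not run. No paired analysis was possible because each antibody has 1 library, and none could be left out. Absence from the NFKB2 list is not absence of binding.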
